A study of Mus musculus with 12 samples.

Results

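Nkx2-1, Foxa1, Foxa2, Gata6, Sox9, Etv5, Klf5, Elf3 and Grhl2 are transcription factors of the lung epithelial lineage. They were chosen by name as a list of 9 of the 23238 gene symbols in the files, and all 9 were present. The RNA came from alveolar type II (ATII) cells, the surfactant-producing stem cells of the alveolus, sorted from mouse lungs as CD74-positive and Ep-CAM-positive cells. Each of the 12 libraries came from 1 mouse, and there were 3 mice in each of 4 groups. Con mice received PBS into the trachea and BLM mice received bleomycin, an agent that damages DNA and the alveolar lining, at 4 mg/kg. KO mice were Spc-p300 d/d with PBS, and KOBLM mice were Spc-p300 d/d with the same dose of bleomycin. In these mice loxP sites flank exon 9 of Ep300, the gene of the histone acetyltransferase p300, and the Cre recombinase is driven by the promoter of Sftpc (Spc), so that deletion is limited to cells in which this promoter is active. Con and BLM mice are Spc-p300 f/f in the Results of the paper, C57BL/6 in its supplementary methods, and the Con libraries are titled WT in the labels. The labels give tamoxifen, the inducer of Cre, at 10 mg/kg to mice of 8 weeks and do not say whether the Con and BLM groups received it.

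Nkx2-1 is the earliest factor of the lung primordium and binds the promoters of the surfactant genes in ATII cells. The forkhead factors Foxa1 and Foxa2 open closed chromatin in endoderm and act with Nkx2-1, while Gata6 is needed for differentiation of the distal airway tips. Sox9 marks the branching tips before birth, Etv5 is an ETS factor induced by FGF signalling that maintains ATII identity, and Klf5 takes part in alveolar differentiation. Elf3 and Grhl2 are factors of differentiated epithelium, and Grhl2 controls genes of the epithelial junctions. p300 is a coactivator that such factors recruit to enhancers.

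The libraries were made with a QuantSeq kit, which reads the 3′ end of each transcript, and held between 7005005 and 11153154 counts (median 9186234). Counts scaled to library size (CPM) are given with TMM scaling, which sets an effective size for each library from the bulk of its genes. A detection floor of 3 counts, the upper limit that a count of 0 allows, corresponded to between 0.216 CPM (BLM 3) and 0.493 CPM (KO 2) on this scale, and it covers counting error only. Between 6286 and 13188 genes lay above the floor in a library. Ep300 itself was at 109 ± 53.3 CPM in Con, 85.1 ± 45.3 in BLM, 142 ± 46.3 in KO and 112 ± 62.1 in KOBLM (SD, n = 3 each), so the labels of the deleted groups were not visible in this transcript. The kit reads the 3′ end and not exon 9, so the Ep300 level alone does not show whether exon 9 was lost. The paper reports loss of p300 by qRT-PCR in isolated ATII cells and by co-staining of lung sections. The defining ATII genes Sftpc and Sftpb were detected in Con at 322 ± 259 and 254 ± 163 CPM, but the 17 macrophage markers summed to between 12660 and 41410 CPM in 11 libraries and to 1133 CPM in the library labelled BLM 3. The 11 ATII markers summed to only 144.0 to 2180 CPM and the 16 pan-epithelial genes to 179.7 to 910.9 CPM. Macrophage transcripts thus outweighed ATII transcripts in libraries labelled as ATII cells. The macrophage genes Adgre1 and Csf1r reached 199 ± 102 and 210 ± 83.3 CPM in Con beside 128 ± 55.8 CPM of Epcam.

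**Figure D1:**
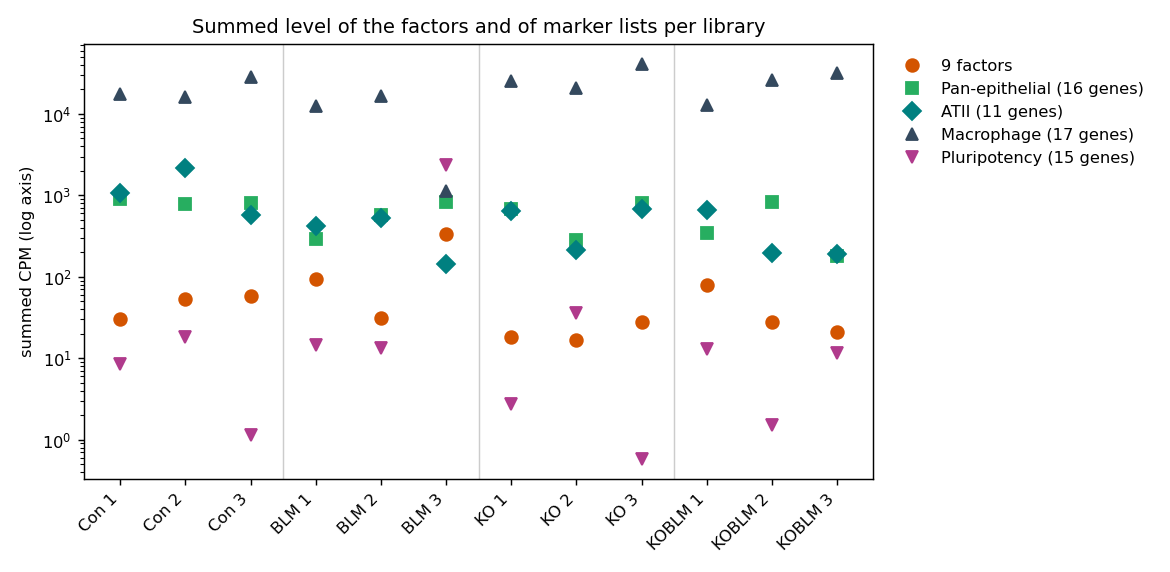
Summed level of the 9 factors and of 4 marker lists in each library, in TMM-scaled CPM on a log axis, with vertical lines between the groups. Macrophage markers exceeded ATII markers in each of the 12 libraries, and BLM 3 was the library in which pluripotency genes summed to 2395 CPM, beside 0.581 to 36.1 CPM elsewhere.

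The library labelled BLM 3 stood apart. It had the fewest genes above the floor (6286), no count of Adgre1 or Csf1r, and 13 of 15 pluripotency genes above the floor, with Pou5f1 at 157 CPM and Nanog at 160 CPM. Its Spearman correlation over genes with BLM 1 and BLM 2 was 0.44 and 0.413, while the same measure between BLM 1 and BLM 2 was 0.879. Results that rest on BLM 3 are therefore given with and without it.

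The 9 factors were sparse in these libraries. Of the 108 values (9 genes in 12 libraries), 48 were above the floor, 6 were between 1 and 3 counts, and 54 were 0. Summed over the 9 genes, the level was 30.7, 53.9 and 58.2 CPM in the Con mice and 93.2, 31.0 and 340 CPM in the BLM mice, the last being BLM 3. It was 18.1, 16.6 and 27.6 CPM in the KO mice and 78.7, 27.5 and 21.0 CPM in the KOBLM mice. The KO values were all below the Con values, as were the sums of airway and of endothelial markers, whereas the KOBLM and BLM values overlapped. The number of factors above the floor was 6, 6 and 4 in Con and 9, 7 and 2 in BLM. In the libraries labelled as deleted it was 3, 2 and 1 in KO and 3, 2 and 3 in KOBLM. Since the RNA was taken from a bulk sort, fewer cells that express a factor and less of its RNA per cell cannot be told apart.

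**Figure D2:**
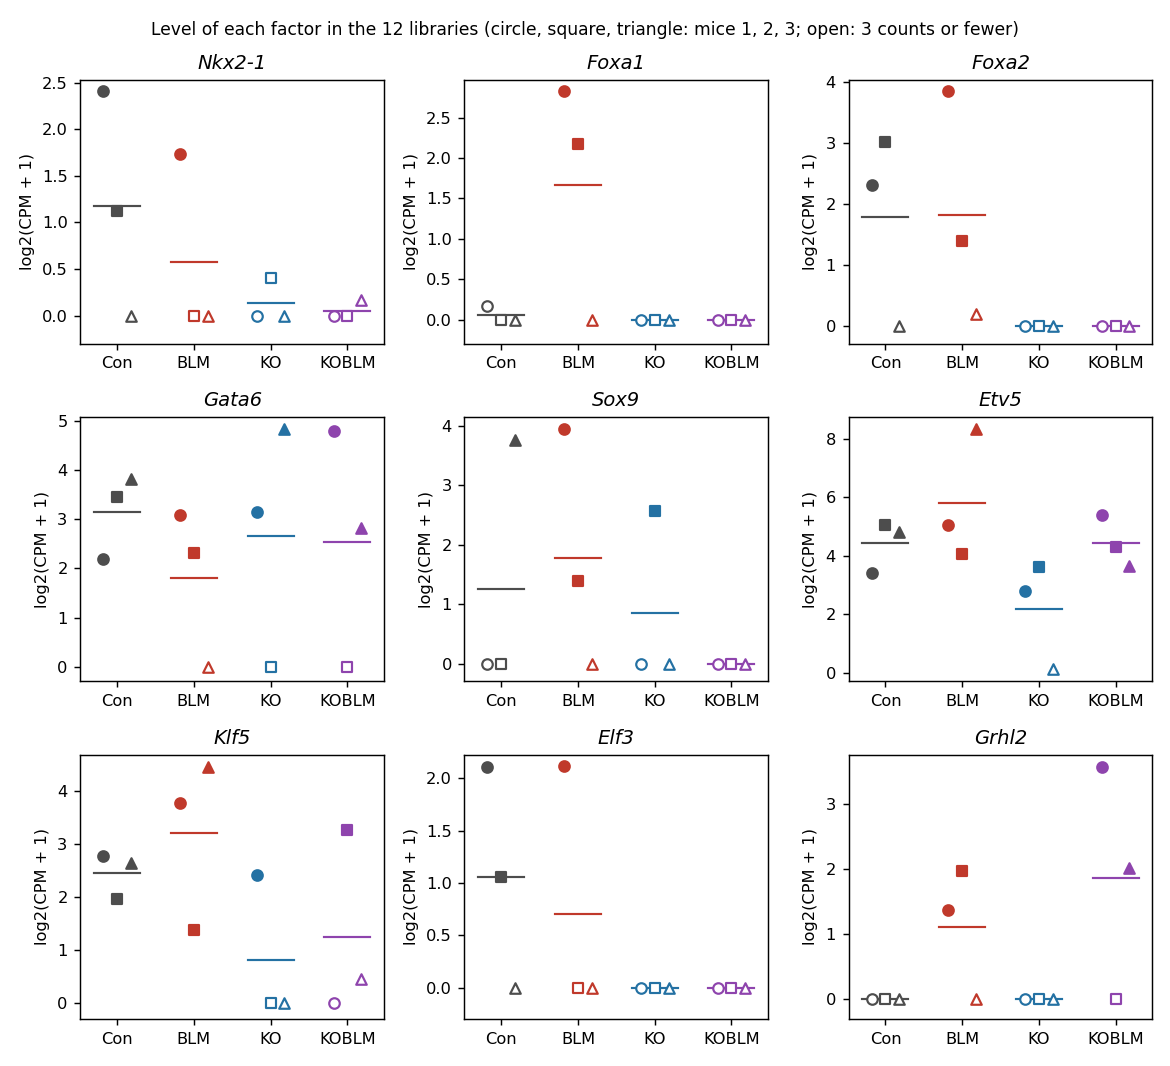
Level of each of the 9 factors in the 12 libraries as log2(CPM + 1), with a panel per gene and its own vertical scale. Symbols mark the mouse, open symbols mark 3 counts or fewer, and lines mark the mean of the log2 values in a group. Foxa1, Foxa2, Nkx2-1 and Elf3 have no filled symbol in KO or KOBLM.

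Nkx2-1 (ENSMUSG00000001496, chr12:56531958-56536908 of GRCm38, minus strand) was counted 34, 11 and 0 times in Con and 16, 0 and 0 times in BLM, which corresponded to at most 4.31 and 2.32 CPM. In the libraries labelled KO it had 0, 2 and 0 counts, and in those labelled KOBLM 0, 0 and 1. It exceeded the floor in 3 of the 12 libraries, Con 1, Con 2 and BLM 1, all without the deletion. Mean levels were 1.83 ± 2.23 CPM in Con and 0.774 ± 1.34 CPM in BLM (SD, n = 3), so the spread between mice was larger than the mean. The KO mean was at least 5.20-fold lower than the Con mean, a bound set by the floor, with an exact permutation p of 0.4 (two-sided, and 0.1 is the smallest that 3 against 3 mice allow).

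Foxa1 (ENSMUSG00000035451, chr12:57540628-57546916, minus strand) was above the floor in 2 libraries, both of BLM. It had 42, 24 and 0 counts in BLM, 1, 0 and 0 counts in Con, and 0 in all 6 deleted libraries. BLM 1 and BLM 2 were the high libraries, at 6.10 and 3.51 CPM. Since BLM 3 lay at 0, the groups overlapped (BLM against Con, exact permutation p = 0.4), and without BLM 3 the BLM mean rose from 3.20 to 4.80 CPM.

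Foxa2 (ENSMUSG00000037025, chr2:148042877-148046969, minus strand) was counted 31, 66 and 0 times in Con, or 3.93, 7.12 and 0 CPM. In BLM it was counted 92, 11 and 2 times, or 13.4, 1.61 and 0.144 CPM. All 6 libraries of KO and KOBLM had 0 counts of Foxa2. BLM 1 and BLM 2 lay above them, while the 2 counts of BLM 3 are under the floor and cannot be told from 0, and Con and KO overlapped at the 0 of Con 3. The mean in KOBLM was at least 14.2-fold lower than in BLM, and the mean in KO at least 10.4-fold lower than in Con. Bleomycin alone did not separate the groups, with means of 3.68 ± 3.57 CPM in Con and 5.04 ± 7.24 CPM in BLM (SD, n = 3).

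Elf3 (ENSMUSG00000003051, chr1:135253575-135258568, minus strand) followed the libraries of Nkx2-1. Its counts were 26, 10 and 0 in Con and 23, 0 and 0 in BLM, and 0 in each deleted library. Nkx2-1, Foxa2 and Elf3 were above the floor together in Con 1, Con 2 and BLM 1. Over the 12 libraries the log2 CPM of Nkx2-1 and Elf3 correlated with r = 0.962, that of Foxa2 and Elf3 with r = 0.892, and that of Nkx2-1 and Foxa2 with r = 0.823. These points share libraries and their depth, and most of them lie at 0, so the coefficients describe joint detection.

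Nkx2-1, Foxa1, Foxa2 and Elf3 thus shared a pattern of detection that was noticed after their values were seen. They were above the floor in at least 2 of the 6 libraries without the deletion and in none of the 6 with it. Of the 3891 genes above the floor in 2 to 6 of the 12 libraries, 473 (12.2%) were above it in libraries without the deletion only, and 4 of the 6 factors in this range (with Sox9 and Grhl2) were among them. The opposite pattern, above the floor in the deleted libraries only, was found in 6.66% of these genes and in 0 factors. Without BLM 3, the same 4 factors kept the pattern, beside 435 of 3926 genes (11.1%).

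Some other measures are given beside this pattern, and not all of them followed it. Con 3 and BLM 3, in which these 4 factors were at or under the floor, had 9725 and 6286 genes above it, while the 4 libraries that held at least 2 of them (Con 1, Con 2, BLM 1 and BLM 2) had 11682 to 13188. BLM 1 alone held all 4. KO 1, KOBLM 1 and KOBLM 3 had 12270, 12186 and 12285 genes above the floor, as many as those 4 libraries, and held none of the 4 factors. Summed pan-epithelial genes were at 682, 342 and 179.7 CPM in these 3 deleted libraries and at 911, 795.0, 288.0 and 568 CPM in Con 1, Con 2, BLM 1 and BLM 2, so the ranges overlapped. ATII markers were at 640.0, 670 and 189 CPM against 1076, 2180, 425 and 533 CPM. Macrophage markers were at 25470, 12830 and 31580 CPM against 17580, 16260, 12660 and 16860 CPM. The libraries outside this comparison, Con 3, BLM 3, KO 2, KO 3 and KOBLM 2, held none of the 4 factors above the floor. Their summed pan-epithelial genes were at 805, 827, 280.5, 818 and 837 CPM, while BLM 1, which held all 4, was at 288.0 CPM. The average genotype contrast described further on called 2.9% of all tested genes. In it, 2 of 17 macrophage markers were called higher in the deleted libraries, Itgax at 0.81 ± 0.358 and Mpeg1 at 0.96 ± 0.430 on the log2 scale, and 0 of 10 ATII markers were called. Scgb1a1 of the airway markers (-1.8 ± 0.566), Ager of the ATI markers (-2.3 ± 0.745) and Cldn3 of the pan-epithelial genes (-7.01 ± 2.36) were called lower in the same contrast. The part of cell composition in the detection pattern was not tested.

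**Figure D3:**
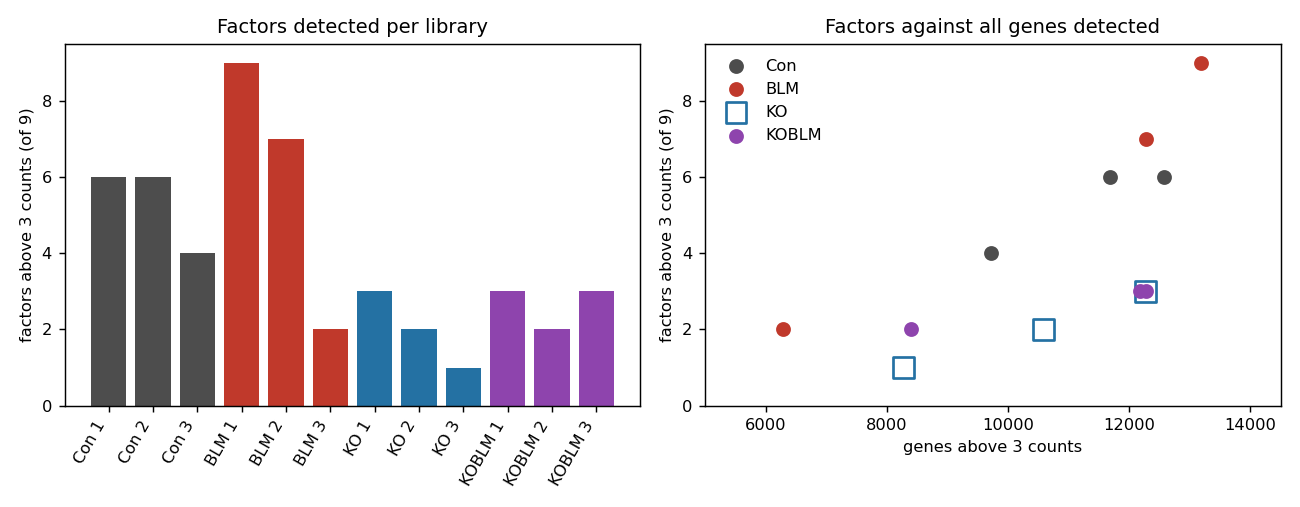
Number of the 9 factors above the floor of 3 counts in each library (left), and the same number against the number of all genes above the floor (right), coloured by group. KO 1, KOBLM 1 and KOBLM 3, between 12186 and 12285 genes, held 3 factors, and Con and BLM libraries between 11682 and 13188 genes held 6 to 9.

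The promoter windows of these 4 genes are printed because they are the factors with counts above the floor in no deleted library, and that of Etv5 is added for comparison. They are RefSeq windows of GRCm38.p6, from 250 bases before to 50 after the annotated start, on the strand of the gene, and 5 of the 9 factors matched an entry. Capitals mark matches on either strand to a forkhead motif (TGTTTAC), an NK2 motif (CAAGTG) or a GC box (GGGCGG). None of these motifs contains another. A GATA motif (AGATAAG) and an ETS motif (CCGGAAG) were also searched and have no match in these windows.
Nkx2-1, chr12:56536859-56537158, minus strand: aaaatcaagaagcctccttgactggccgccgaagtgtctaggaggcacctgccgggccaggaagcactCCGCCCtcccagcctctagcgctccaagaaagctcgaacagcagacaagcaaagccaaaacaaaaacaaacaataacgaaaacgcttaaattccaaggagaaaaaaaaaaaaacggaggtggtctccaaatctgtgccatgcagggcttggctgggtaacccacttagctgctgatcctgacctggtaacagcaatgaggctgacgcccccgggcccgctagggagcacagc
Foxa1, chr12:57546062-57546361, minus strand: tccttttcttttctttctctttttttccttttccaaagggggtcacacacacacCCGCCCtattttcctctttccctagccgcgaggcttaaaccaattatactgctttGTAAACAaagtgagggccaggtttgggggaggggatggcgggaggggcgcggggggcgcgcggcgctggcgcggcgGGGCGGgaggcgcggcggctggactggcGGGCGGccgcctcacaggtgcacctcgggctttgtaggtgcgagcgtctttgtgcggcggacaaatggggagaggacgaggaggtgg
Foxa2, chr2:148046920-148047219, minus strand: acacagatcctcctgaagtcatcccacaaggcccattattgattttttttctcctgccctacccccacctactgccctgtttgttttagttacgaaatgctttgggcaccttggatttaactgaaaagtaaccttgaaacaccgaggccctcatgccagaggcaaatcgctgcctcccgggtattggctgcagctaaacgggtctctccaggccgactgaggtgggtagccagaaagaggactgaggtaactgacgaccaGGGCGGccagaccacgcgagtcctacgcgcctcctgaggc
Elf3, chr1:135258423-135258722, minus strand: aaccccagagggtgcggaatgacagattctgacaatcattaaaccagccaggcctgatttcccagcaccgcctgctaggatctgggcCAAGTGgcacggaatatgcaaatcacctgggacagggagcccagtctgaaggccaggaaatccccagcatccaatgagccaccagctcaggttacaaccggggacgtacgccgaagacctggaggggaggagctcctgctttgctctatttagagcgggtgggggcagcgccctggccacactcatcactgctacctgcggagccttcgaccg
Etv5, chr16:22439521-22439820, minus strand: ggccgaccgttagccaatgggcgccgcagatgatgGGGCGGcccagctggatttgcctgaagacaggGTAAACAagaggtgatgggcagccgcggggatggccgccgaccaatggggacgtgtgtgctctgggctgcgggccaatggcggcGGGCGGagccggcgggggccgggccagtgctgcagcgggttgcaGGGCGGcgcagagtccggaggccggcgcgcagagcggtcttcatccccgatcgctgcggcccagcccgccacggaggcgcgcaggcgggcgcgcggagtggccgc

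The forkhead letters occur once in the window of Foxa1 and once in that of Etv5, in both as GTAAACA on the strand of the gene. They are found in 3.65% of the 32851 RefSeq windows. The NK2 letters occur once in the window of Elf3, beside 13.561% of all windows. GC boxes occur 1 time in Nkx2-1 and Foxa2 and 3 times in Foxa1 and Etv5, and in 35.658% of all windows. The GATA and ETS letters lie in 3.044% and 8.858% of all windows. GC content is 53.67% for Nkx2-1, 62.33% for Foxa1, 54.33% for Foxa2, 59.0% for Elf3 and 74.0% for Etv5, against a median of 52.67% over all windows. Foxa2 has 2 further annotated starts and Etv5 has 1, whose windows hold 2, 1 and 0 GC boxes and no forkhead or NK2 letters. Gata6, Klf5, Sox9 and Grhl2 have no entry.

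Etv5 (ENSMUSG00000013089, chr16:22381309-22439719, minus strand) was the most regularly detected factor, above the floor in 11 of 12 libraries. It was counted 76, 294 and 310 times in Con (9.64, 31.7 and 27.2 CPM) and 220, 108 and 4424 times in BLM (31.9, 15.8 and 318 CPM). BLM 3 alone lay outside the range of the others, and the BLM mean of 122 ± 170 CPM (SD, n = 3) fell to 23.9 CPM without it, next to 22.8 ± 11.7 CPM in Con. The libraries labelled KO had 56, 69 and 1 counts (5.92, 11.3 and 0.0830 CPM), and those labelled KOBLM had 293, 200 and 95 (40.9, 18.8 and 11.5 CPM). Each KOBLM library lay above each KO library, with means of 23.7 ± 15.3 and 5.78 ± 5.63 CPM and an exact permutation p of 0.1, the smallest possible. KO 2, the highest KO library, was at 11.3 CPM and KOBLM 3, the lowest KOBLM library, at 11.5 CPM, so the groups were hardly apart.

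Klf5 (ENSMUSG00000005148, chr14:99298691-99315036, plus strand) was above the floor in all 6 libraries without the deletion and in 2 of the 6 with it. Its counts were 46, 27 and 60 in Con (5.84, 2.91 and 5.26 CPM) and 87, 11 and 292 in BLM (12.6, 1.61 and 21.0 CPM) and were again highest in BLM 3, without which the BLM mean fell from 11.8 to 7.12 CPM. KO had 41, 0 and 0 counts and KOBLM 0, 92 and 3, so that 1 mouse in each group, KO 1 at 4.33 CPM and KOBLM 2 at 8.66 CPM, carried nearly all the signal.

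Gata6 (ENSMUSG00000005836, chr18:11052064-11085635, plus strand) was detected in every group. It was at 3.55, 9.92 and 13.2 CPM in Con and 7.55, 3.95 and 0 CPM in BLM. KO libraries were at 7.82, 0 and 27.6 CPM and KOBLM libraries at 26.9, 0 and 6.04 CPM. All groups overlapped, with exact permutation p between 0.3 and 0.8 in the 4 comparisons. The antisense gene 1010001N08Rik overlaps Gata6 in the annotation, and whether the counting used strand is not given in the sources used here.

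Sox9 (ENSMUSG00000000567, chr11:112782224-112787760, plus strand) was above the floor in 4 libraries, 1 in Con, 2 in BLM and 1 in KO. Con 3 had 143 counts (12.5 CPM), BLM 1 had 99 (14.4 CPM), BLM 2 had 11 (1.61 CPM) and KO 2 had 30 (4.93 CPM). The other libraries, among them all 3 KOBLM libraries, had 0.

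Grhl2 (ENSMUSG00000022286, chr15:37233036-37363569, plus strand) was the only factor detected after bleomycin in both genotypes and in no PBS library. It had 11, 20 and 0 counts in BLM (1.6, 2.92 and 0 CPM) and 78, 0 and 25 in KOBLM (10.9, 0 and 3.02 CPM), beside 0 in all 6 PBS libraries. The BLM mean was at least 4.68-fold above Con and the KOBLM mean at least 13.1-fold above KO. Within each genotype 1 of 3 bleomycin libraries was at 0, so the groups overlapped (exact permutation p = 0.4 in both). The pattern was read off these values, and its share over all genes was not computed.

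The effect of bleomycin and of the deletion was then tested across all 13054 genes that passed the low-count filter, with the quasi-likelihood test of edgeR. A gene was called at a fold over 1.5 and an unadjusted p under 0.05. No gene reached an adjusted p under 0.05 in any comparison with edgeR, whereas 188 to 558 genes per comparison were called by this rule. DESeq2 gave 57 to 114 genes an adjusted p under 0.05. Of the 9 factors, 7 passed the filter. Foxa1 and Elf3 did not, and their fold changes come from a fit without the filter. Groups of 3 mice with a common coefficient of variation of 1.444 set the precision.

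In BLM against Con, edgeR called 0 of the 7 tested factors, where 4.27% of all tested genes (558) were called. DESeq2 called 1 factor (Etv5), where it called 947 genes in all. Etv5 had a log2 fold change of 2.42 ± 1.40 (SE, edgeR adjusted p = 1.0), which became 0.06 without BLM 3. Grhl2 had a fitted change of 6.80 ± 3.41 against a Con group at 0, a value that depends on the fit. The other 5 lay between -1.23 for Nkx2-1 and 1.33 for Klf5, each smaller than its standard error. The median of the 7 was 0.45, beside -0.08 over all tested genes, and without BLM 3 it was 0.61, beside 0.04.

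In KO against Con, 0 of the 7 factors were called by edgeR, against a background of 1.44% (188 genes). DESeq2 also called 0 of them, against a larger background of 374 genes. The lowest fitted value was that of Foxa2, -8.08 ± 3.66 (edgeR adjusted p = 1.0), against a KO group at 0 (exact permutation p = 0.4), and it was called once Con 3 was left out. Nkx2-1 was at -3.97 ± 3.14, against a KO group under the floor. Etv5 was at -1.99 ± 1.39, Klf5 at -1.68 ± 2.71, Sox9 at -1.35 ± 3.46 and Gata6 at 0.41 ± 2.51. The median was -1.68, beside -0.09 over all genes.

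In KOBLM against BLM, which ask the same of the deletion under bleomycin, 1 of the 7 factors was called, where 3.16% of all genes were. It was Foxa2, which fell by 8.53 ± 3.76 on the fitted log2 scale (edgeR adjusted p = 1.0). Foxa2 passed the filter only through libraries without the deletion, in which it is high, so the share of all genes is no fair background for it. The exact permutation p of 0.1 rests on setting the 2 counts of BLM 3, under the floor, above 0. The call was lost without the low-count filter and without any 1 of BLM 1, BLM 2 or the KOBLM libraries, with unadjusted p up to 0.102 by edgeR. DESeq2 also called Etv5 and Sox9, where it called 755 genes in all and edgeR 413. For Sox9, at 0 in KOBLM, the DESeq2 change was -22.4 ± 4.25 with an adjusted p of 8.1e-05, a size that depends on the fit. The edgeR change was -8.61 ± 4.42 with an adjusted p of 1.0, and the exact permutation p was 0.4. Nkx2-1 was at -3.87 ± 3.06, against a KOBLM group under the floor. Etv5 was at -2.36 ± 1.40, Klf5 at -1.96 ± 2.73, Gata6 at 1.52 ± 2.56 and Grhl2 at 1.615 ± 3.03. The median, which is the value of Etv5, was -2.36, beside 0.1 over all genes. Without BLM 3, the library at 318 CPM, the change of Etv5 was -0.008 and the median -1.24, beside -0.06 over all genes.

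In KOBLM against KO, 1 of the 7 factors was called, beside 1.69% of all genes. Grhl2 rose by 8.41 ± 3.77 on the fitted log2 scale (edgeR adjusted p = 1.0). Grhl2 passed the filter only through bleomycin libraries, in which it is high, so the share of all genes is no fair background for it. The call was lost without the low-count filter and without any 1 of KO 1, KO 2, KO 3, KOBLM 1 or KOBLM 3. DESeq2 called Sox9 and not Grhl2, where it called 460 genes in all and edgeR 221. Etv5 was at 2.04 ± 1.39 and Klf5 at 1.05 ± 2.66. These comparisons share libraries pairwise and are not independent of each other.

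**Figure D4:**
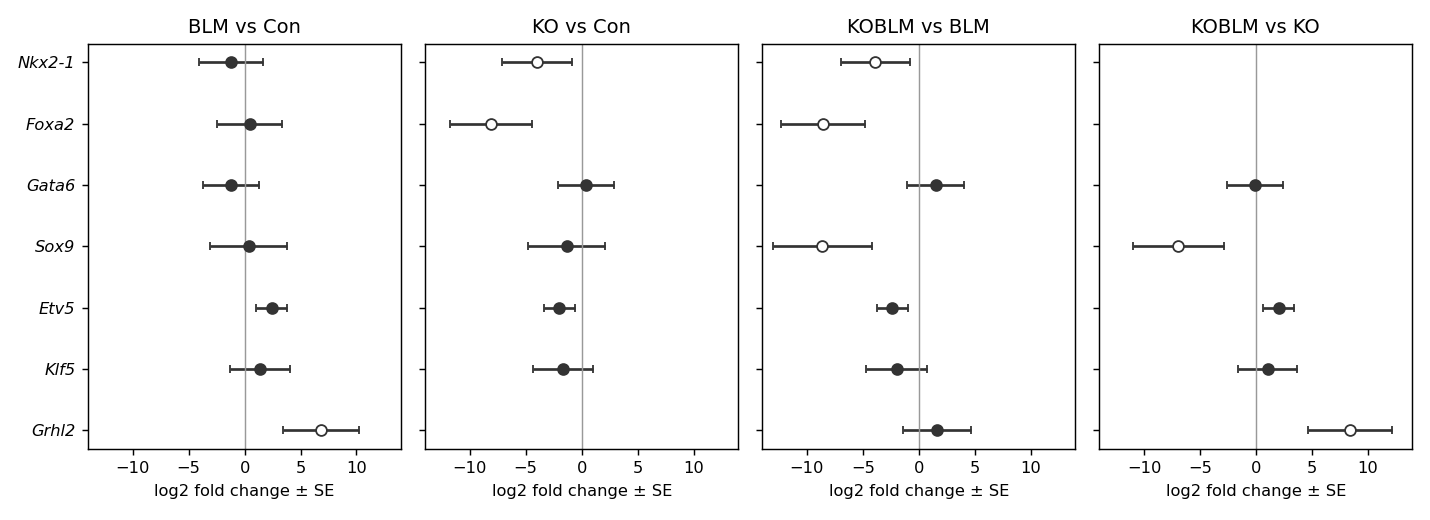
Log2 fold change with its standard error for the 7 tested factors in the 4 comparisons, from edgeR. Open symbols mark fits against a group with no library above the floor, whose size depends on the fit, and pairs with both groups at or under the floor are left out. Of the 28 pairs, Foxa2 in KOBLM against BLM and Grhl2 in KOBLM against KO were called.

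An interaction term asked whether bleomycin acted differently in the deleted mice. With edgeR it called 0 of the 7 factors, where 2.82% of all genes (368) were called. DESeq2 called Sox9, where it called 625 genes in all. For Etv5 the interaction was -0.38 ± 1.90 and for Klf5 -0.28 ± 3.8, so a difference between genotypes in either direction lies within the error. Without BLM 3 the estimate for Etv5 was 1.98.

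A comparison added after the values were seen set the 6 deleted libraries against the 6 others as the average of both genotype contrasts. Since it was chosen with the zeros of the deleted libraries in view, its values describe that pattern and do not test it. It called 2 of the 7 factors, Foxa2 and Etv5, both lower, where 2.9% of all genes were called (125 higher and 254 lower). Foxa2, which passed the filter through the libraries in which it is high, had a fitted log2 change of -8.31 ± 2.63. Its mean was 4.36 ± 5.16 CPM in the 6 libraries without the deletion (SD) and at least 12.3-fold lower in the others. Etv5 had a change of -2.18 ± 0.985, from 72.5 ± 121 to 14.8 ± 14.3 CPM, and without BLM 3 its change was -0.997. The Etv5 call was lost there, and also without Con 2, Con 3, KO 1, KOBLM 2 or KOBLM 3. Without BLM 3 the Etv5 mean of the other 5 libraries was 23.3 ± 10.0 CPM. Elf3, in the fit without the filter, was at -6.52 ± 2.96, and Klf5 was at -1.82 ± 1.92.

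Foxa2 in KOBLM against BLM and Etv5 in KOBLM against KO were the factors whose groups did not overlap, 1 of 7 in each, and for Foxa2 this rests on the 2 counts of BLM 3, which lie under the floor. Over all tested genes such groups made up 10.8% and 6.87%. In BLM against Con and KO against Con, 0 of 7 factors had groups without overlap, beside 16.0% and 9.09% of all genes, and between the genotypes over all 12 libraries it was 0 of 7, beside 0.161%.

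Among 31 other transcription factors of the lung epithelium, 16 passed the filter. In BLM against Con, Id2, an inhibitor of differentiation found in distal tips, rose by 1.8 ± 0.744 on the log2 scale and Etv1, an ETS factor of the same family as Etv5, fell by 9.47 ± 4.13 to a group at 0. Etv1 had 0, 35 and 287 counts in Con, so the groups overlapped at 0. In KO against Con, 2 of the 16 were called, both lower, where 1.44% of all tested genes were called. These were Etv1 and Sox4, which was at 24.6, 11.1 and 6.84 CPM in Con and at or under the floor in all 3 KO mice. Sox4, a SoxC factor of immature and injured epithelium, was called in the opposite direction in KOBLM against KO, where 1 library, KOBLM 2, was at 0 and the others at 65.6 and 32.9 CPM. Irx1, a homeobox factor of distal epithelium, was lower in both comparisons of KOBLM, being 0 in its 3 libraries. It had 47, 30 and 103 counts in KO but 64, 3 and 0 in BLM, so the call against BLM rests on BLM 1. Sox2, a factor of the airway and of pluripotent cells, was called lower in KOBLM against BLM with BLM 3 at 232 CPM and BLM 1 and BLM 2 at 0 and 5.85 CPM. The average genotype contrast called Sox2 and Sox4, both lower, and the interaction called Etv1 and Sox4, both higher. For Sox2, BLM 3 held 3225 counts, beside 33 in Con 1, 40 in BLM 2 and 0 elsewhere. The adjusted p of each of these calls was above 0.99 with edgeR.

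The 12 FGF response genes all passed the filter, and Etv1, which is also in the list above, was the only one called in any comparison. It was called lower in BLM against Con and in KO against Con, and higher in the interaction. Summed, they stood at 327 to 334 CPM in the Con mice and at 234 to 460 CPM in the BLM mice. The KO mice had 91.0 to 268 CPM and the KOBLM mice 239 to 446 CPM, so the KO values lay below all Con values. Those of Etv5 did so with 1 exception (KO 2 above Con 1). This separation was not particular to FGF response genes. Summed airway markers were at 269 to 375 CPM in Con and 50.25 to 254 CPM in KO. Summed endothelial markers were at 559 to 1045 CPM in Con and 71.0 to 502 CPM in KO. The sums of the other cell type lists overlapped between Con and KO.

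Of 10 tested ATII markers, 4 were called lower in BLM against Con, where 4.27% of all tested genes were called in either direction. Sftpc, the surfactant protein that marks ATII cells, had a log2 change of -3.2 ± 1.27, Sftpa1 one of -3.32 ± 0.987, the chemokine Cxcl15 one of -4.22 ± 1.78 and Hc one of -10.03 ± 3.70. Nkx2-1, a regulator of Sftpc, had a change of -1.23 ± 2.84 in the same fit. In KO against Con 0 of the 10 were called, and Sftpc was at 74.0 ± 64.7 CPM against 322 ± 259 CPM. KOBLM against BLM gave 0 calls, and KOBLM against KO gave Hc, lower.

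Of 14 tested pan-epithelial genes, Cldn4 was called higher and Krt19 lower in BLM against Con, and KOBLM against BLM called both in the opposite direction, and Cdh1 lower at -1.53 ± 0.673. Cdh1 was at 137, 294 and 412 CPM in BLM, the last being BLM 3. Cldn4, a claudin of the tight junction, was at 8.28, 19.3 and 14.1 CPM in BLM and at 0 in the other 9 libraries, among them the 3 KOBLM libraries. Grhl2, a regulator of such junction genes, was by contrast detected in BLM and in KOBLM. Krt19 was at 471, 431 and 427 CPM in Con and at 11.6, 19.5 and 0 CPM in BLM. The average genotype contrast called Cldn3, another claudin, lower. Krt19 was also called in the interaction.

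Markers of other cells also moved with bleomycin in the mice without the deletion, where 4.27% of all tested genes were called. In BLM against Con, 3 of 17 macrophage markers were called higher (C1qa, C1qb and C1qc, the subunits of complement C1q) and 4 lower (Ear2, Itgax, Mpeg1 and Mrc1). Of 8 tested mesenchymal markers 3 were called higher (Acta2, Col1a2 and Col3a1), of 9 lymphocyte markers 3 lower (Ms4a1, Cd79a and Cd8a), and of 9 endothelial markers and 6 neutrophil markers 0 in either direction. Of 5 tested airway markers, Scgb1a1, the secretory protein of club cells, was called higher and Tppp3 lower, and of 9 tested ATI markers none was. In KO against Con the calls in these lists were C1qa, higher, and the ATI gene Ager, lower. In KOBLM against BLM, Foxa2 and 3.16% of all tested genes were called. The macrophage markers Lyz2 (2.45 ± 1.03), Itgax (1.85 ± 0.519) and Mpeg1 (1.75 ± 0.620) and the lymphocyte marker Cd8a (8.67 ± 3.45) were called higher there. Scgb1a1 (-1.98 ± 0.804) and the mesenchymal marker Col3a1 (-2.19 ± 0.977) were called lower there. Lyz2 was at 365, 1022 and 7.20 CPM in BLM, the last being BLM 3, and at 987 to 3613 CPM in KOBLM. The part of these markers in the values of the 9 factors was not tested.

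The genes whose log2 CPM over the 12 libraries was most like the mean of the 7 tested factors, among those with a mean of at least 10 CPM, were Get4 (r = 0.873), Hist2h2aa1 and Hist2h2aa2 (0.86 each), Ap4b1 (0.85) and Edn1 (0.849). The pair of histone genes are near-identical copies and count as 1. Without BLM 3 these coefficients were between 0.855 and 0.891. They are descriptions over 12 libraries that share depth and composition.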

How the data were processed

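Libraries of 12 mice (RNA of sorted ATII cells) were sequenced as single-end reads of 75 nt. The authors deposited raw counts per gene symbol for each library, without normalization. The submitters' processing notes name Bowtie2, edgeR and mm10, while their versions, the counter and the annotation are not given in the sources used here. Groups and replicate numbers came from the labels. Entries of symbols listed more than once (79 entries of 35 symbols) were summed.

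Counts were filtered with filterByExpr by group (minimum count 10, minimum total 15) and scaled by TMM (factors 0.836 to 1.246). The quasi-likelihood test of edgeR 4.0.16 was fitted to the 4 groups with 8 residual degrees of freedom, and p-values were adjusted by Benjamini-Hochberg over all 13054 genes. A gene was called at a fold over 1.5 and an unadjusted p under 0.05, the threshold of the study. CPM of single genes were compared by two-sided exact permutation of log2 CPM (prior count 2). A fold against a group with no library above 3 counts is a lower bound, computed with 3 counts per library. Nothing in the fit drops or imputes a library. On simulated counts, the edgeR test was checked for BLM against Con with changes in well-detected genes. That check does not cover factors near the floor, DESeq2 or the permutation test. The software was R 4.3.3 with DESeq2 1.42.0, and Python 3.11.15 with scipy 1.17.1, numpy 2.4.6, matplotlib 3.10.9 and pandas 2.3.3.

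Named genes are the 9 factors, Ep300, the 5 genes most like the factors, the called genes of each list and the defining genes of cell types. The members and lists were chosen with earlier results of these data known. Positions are from GENCODE M21 on GRCm38, and promoter windows from RefSeq. The alternatives were DESeq2's size factors, library size alone, no filter, a replicate block, a fit of only the groups compared, DESeq2, an adjusted p, and each library left out.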

Additional observations from a re-analysis of the deposited data

How the results depend on the processing

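The adjusted p under 0.05 called 0 factors with edgeR in each comparison. DESeq2 called 1 factor in BLM against Con (Etv5), 3 in KOBLM against BLM (Foxa2, Etv5 and Sox9) and 1 in the interaction (Sox9), and gave Sox9 an adjusted p of 8.1e-05 in KOBLM against BLM, 0.000347 in KOBLM against KO, 0.0491 in the interaction and 0.0106 in the average genotype contrast, with a KOBLM group at 0. The fitted DESeq2 changes of Sox9 were -22.4 in KOBLM against BLM and -20.76 in KOBLM against KO, sizes that depend on the fit, and the cause was not tested. Without the low-count filter or with only the groups compared, 0 factors were called in KOBLM against BLM and in KOBLM against KO, and library size alone called 1 in KO against Con (Foxa2). With the replicate block 0 were called in both KOBLM comparisons and 1 in the average genotype contrast. Whether the replicate numbers pair the mice is not settled. Deviations of same-numbered libraries correlated between -0.117 and 0.096, without other pairs as a reference, so the block is given as a value only. Under the replicate block, Gata6 in KO against Con became -0.45 and Klf5 in the interaction 1.09.

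Without single libraries, the calls ran from 0 to 1 in KO against Con, KOBLM against BLM, KOBLM against KO and the interaction, and from 1 to 3 in the average genotype contrast, where Klf5 was called without KO 1 and Sox9 without KO 2. Of 34 fold changes of factors, 11 changed sign without some library, and 2 under another alternative. Their ranges were, in BLM against Con, -7.11 to 0.37 for Nkx2-1, -2.06 to 1.35 for Foxa2 and -2.37 to 8.58 for Sox9, in KO against Con, -1.18 to 1.03 for Gata6 and -8.32 to 6.88 for Sox9, in KOBLM against BLM, -0.32 to 2.48 for Gata6, in KOBLM against KO, -1.99 to 1.49 for Gata6 and -2.89 to 7.82 for Klf5, and in the interaction, -0.76 to 2.70 for Gata6, -0.96 to 1.98 for Etv5 and -4.22 to 6.54 for Klf5.

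Over the alternatives other than single libraries and the adjusted p, all called genes ran from 394 to 947 (558 as reported) in BLM against Con, 100 to 374 (188) in KO against Con, 208 to 755 (413) in KOBLM against BLM, 100 to 460 (221) in KOBLM against KO, 242 to 706 (368) in the interaction and 219 to 714 (379) in the average genotype contrast. The highest counts came from DESeq2 or from no filter. DESeq2 gave 57 to 114 genes an adjusted p under 0.05, where edgeR gave 0. Depth limits a level under 0.216 to 0.493 CPM on the TMM scale.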
